A study of Mus musculus with 6 samples.

Results

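The genes described here encode 10 proteoglycans and related proteins of the vessel wall. They were chosen by symbol, as the rows of the count table whose Ensembl gene ID maps to Dcn, Bgn, Aspn, Lum, Fmod, Prelp, Ogn, Vcan, Acan or Hapln1. All 10 were found among 55401 gene IDs, and all 10 were among the 19833 genes with enough reads to test. The aortas came from IL16-/-ApoE-/- mice, which lack the cytokine interleukin-16 and apolipoprotein E, and from ApoE-/- mice, titled Apo-/- in the labels, which lack apolipoprotein E alone. Mice of both genotypes ate a high-fat diet that began at 8 weeks of age and lasted 24 weeks. There were 3 samples per genotype, numbered 1 to 3. The strain background, the sex, the deleted part of either gene, the stretch of aorta and whether a sample is 1 animal do not appear in the labels. The p-values therefore cover the differences among these samples alone, and those may be technical.

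Small leucine-rich proteoglycans are secreted proteins with a curved core of leucine-rich repeats that binds collagen fibrils and sets their spacing and thickness. Most carry chondroitin, dermatan or keratan sulfate chains. Versican and aggrecan are much larger, carry many chondroitin sulfate chains and bind hyaluronan in aggregates held together by link protein. In the arterial wall these chains can bind apolipoprotein B-containing lipoproteins, and versican and biglycan are known as components of the atherosclerotic intima. Smooth muscle cells and adventitial fibroblasts are the main sources of these proteins in an artery.

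The libraries held 42861980 to 47208779 counts in IL16-/-ApoE-/- and 65730552 to 85568269 counts in ApoE-/-, with no overlap between the groups. Values below are CPM, the counts of a gene scaled by the size of its library after TMM normalisation, which corrects for differences in RNA make-up between libraries. The targeted Il16 was at 7.93, 12.1 and 12.2 CPM in IL16-/-ApoE-/- 1, 2 and 3, against 28.3, 28.7 and 15.1 CPM in ApoE-/- 1, 2 and 3, and the difference did not pass the test (log2 fold change -1.16, SE 0.32, adjusted p = 0.163 in edgeR). Il16 passed as lower in DESeq2 and in limma-voom with sample weights. Apoe, the gene deleted in both groups, still had reads, at 138, 183 and 137 CPM in IL16-/-ApoE-/- 1, 2 and 3 against 45.0, 24.9 and 20.9 CPM in ApoE-/- 1, 2 and 3, and passed as higher (log2 fold change 2.34, SE 0.33, adjusted p = 0.0369). Whether these reads lie outside the deleted part was not tested. The library labelled ApoE-/- 1 stood apart, with Xist at 474 CPM and Ddx3y, a gene of the Y chromosome, at 0.143 CPM. In the remaining 5 libraries there were at most 6.21 CPM of Xist and at least 70.1 CPM of Ddx3y. Libraries of both sex patterns were thus present in the ApoE-/- group, and results are given with and without ApoE-/- 1. Sex and the other differences of that library cannot be told apart.

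With all libraries in, none of the 10 genes passed the comparison of IL16-/-ApoE-/- with ApoE-/- (edgeR's quasi-likelihood test, two-sided, Benjamini-Hochberg adjusted p under 0.05 over all tested genes). Over all tested genes 1.2% passed, 1.14% as higher and 0.0605% as lower. Unadjusted p was under 0.05 for 2 of the 10, Aspn and Ogn, both lower in IL16-/-ApoE-/-, against 7.03% of all tested genes as lower, 8.87% as higher and 15.9% in either direction. The groups did not overlap for 3 of the 10 (Lum higher, Aspn and Ogn lower), against 26.4% of all tested genes. The log2 fold change was negative for 9 members and positive for Lum, and negative for 10621 of all 19833 tested genes. Its median was -0.33 over the members and -0.05 over all tested genes. DESeq2 passed 2 members as lower, Aspn and Ogn, and limma-voom with sample weights passed 3, Aspn, Ogn and Vcan. Neither passed any member as higher. Over all tested genes, DESeq2 passed 462 as lower and 1235 as higher of 19757. Limma-voom with sample weights passed 1488 as lower and 1863 as higher of 19833. Its weights were 0.155, 1.11 and 0.28 for ApoE-/- 1, 2 and 3, and 2.39 to 2.98 for the IL16-/-ApoE-/- libraries. ApoE-/- 1 thus counted least, so that fit is partly like leaving ApoE-/- 1 out.

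In edgeR the outcome turned on ApoE-/- 1. Without it, Aspn, Ogn, Vcan and Hapln1 passed in edgeR's quasi-likelihood test as lower in IL16-/-ApoE-/- and none passed as higher. In that comparison 12.8% of all tested genes passed as lower, 13.1% as higher and 25.9% in either direction. Leaving out any other library passed none of the 10.

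**Figure D1:**
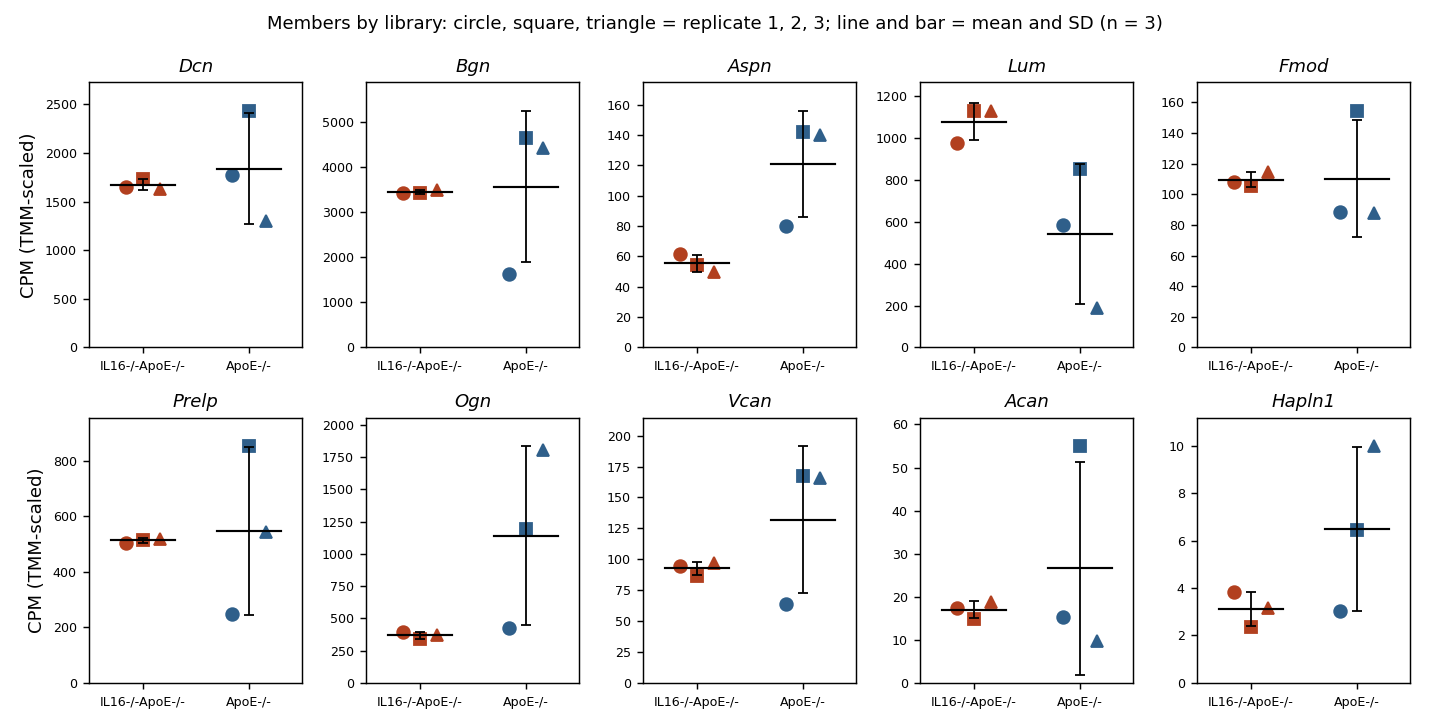
CPM of each member (y axis, own scale per panel, from 0) in the 3 IL16-/-ApoE-/- libraries (left) and the 3 ApoE-/- libraries (right), with the mean and SD (n = 3 each). The IL16-/-ApoE-/- points lie close together, and the ApoE-/- points spread widely, with ApoE-/- 1 lowest for Bgn (1633 CPM), Prelp (247 CPM) and Vcan (63.6 CPM).

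The members were far more alike among the IL16-/-ApoE-/- libraries than among the ApoE-/- libraries. Their coefficient of variation (SD divided by mean) ran from 1.1% (Bgn) to 23.3% (Hapln1) in IL16-/-ApoE-/-, and from 29.1% (Aspn) to 92.8% (Acan) in ApoE-/-. The median over all tested genes was 11.5% in IL16-/-ApoE-/- and 35.2% in ApoE-/-. The difference in spread was not tested.

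Per transcript length (CPM per kilobase, with the median length of a gene's basic transcripts), biglycan was the most abundant member in IL16-/-ApoE-/- at 1727 ± 19.0 CPM per kb (SD, n = 3). Decorin followed at 950.9 ± 32.5 and lumican at 441 ± 36.5 CPM per kb. Osteoglycin (143 ± 10.7) and Prelp (142 ± 2.25) could not be ordered, since their libraries overlapped. Fmod, Aspn, Vcan, Acan and Hapln1 came next in that order, at 35.1 ± 1.55, 23.9 ± 2.54, 16.3 ± 0.954, 2.31 ± 0.273 and 0.545 ± 0.127 CPM per kb. In ApoE-/- the means were 1789 ± 842 for Bgn, 1046 ± 323 for Dcn, 445 ± 270.1 for Ogn and 221 ± 136 for Lum (CPM per kb, SD, n = 3), followed by Prelp at 151 ± 83.8, Aspn at 52.1 ± 15.1, Fmod at 35.3 ± 12.3, Vcan at 23.2 ± 10.4, Acan at 3.62 ± 3.36 and Hapln1 at 1.14 ± 0.608. Neighbours in that order overlapped, except that all Dcn libraries lay above all Ogn libraries, all Prelp above all Aspn and all Vcan above all Acan. Asporin stood above fibromodulin on average in ApoE-/-, with overlap, whereas all Fmod libraries lay above all Aspn libraries in IL16-/-ApoE-/-. Osteoglycin stood above lumican in ApoE-/- 2 and 3 and below it in ApoE-/- 1 and in every IL16-/-ApoE-/- library. With the longest transcript of each gene instead, the Vcan level was 7.46 CPM per kb in IL16-/-ApoE-/- and 10.6 in ApoE-/-, since its splice forms differ in length.

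**Figure D2:**
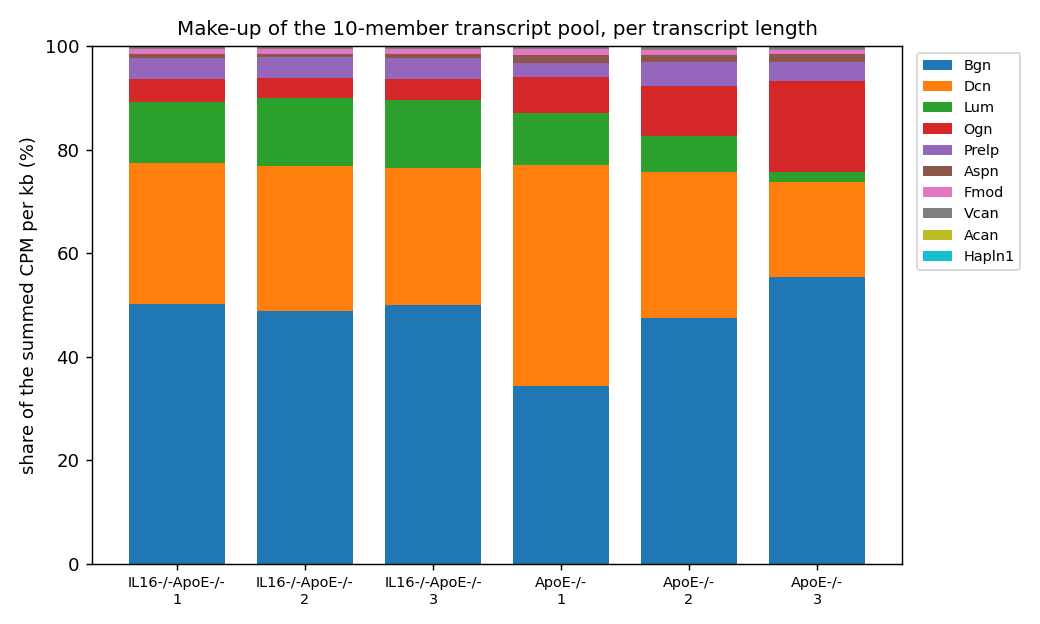
Share of each member in the summed CPM per kb of the 10 members (y axis, percent) in the 6 libraries (IL16-/-ApoE-/- left, ApoE-/- right). Lumican takes 11.6% to 13.2% in IL16-/-ApoE-/- and 1.92% to 10.03% in ApoE-/-, and osteoglycin takes 3.78% to 4.49% in IL16-/-ApoE-/- and 6.95% to 17.6% in ApoE-/-.

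The summed CPM of the 10 members was 7242, 7404 and 7425 in IL16-/-ApoE-/- 1, 2 and 3, against 4914, 10510 and 8685 in ApoE-/- 1, 2 and 3. The IL16-/-ApoE-/- sums lay between the ApoE-/- sums. The plot of shares gives the make-up of this sum per length. Biglycan took 48.8% to 50.2% of the per-length sum in IL16-/-ApoE-/-, inside the 34.4% to 55.3% of ApoE-/-. Decorin took 26.5% to 28.1%, inside 18.5% to 42.5%. The shares of lumican, osteoglycin, asporin and Hapln1 did not overlap between the groups. Hapln1 took 0.0118% to 0.0195% in IL16-/-ApoE-/- and 0.0224% to 0.0436% in ApoE-/-. The CPM of Hapln1 itself overlapped between the groups, and ApoE-/- 1 had the lowest per-length sum (2377 CPM per kb). Asporin took 0.614% to 0.774% in IL16-/-ApoE-/- and 1.25% to 1.51% in ApoE-/-. Each share depends on the other members as well as on its own gene.

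Class I of the family holds decorin, biglycan and asporin. Decorin (Dcn, ENSMUSG00000019929, GRCm38 chromosome 10, 97479609 to 97518143, plus strand) binds type I collagen and transforming growth factor beta. It was at 1646, 1737 and 1632 CPM in IL16-/-ApoE-/- 1, 2 and 3, against 1777, 2435 and 1304 CPM in ApoE-/- 1, 2 and 3. The IL16-/-ApoE-/- libraries lay within the ApoE-/- range. Its log2 fold change was -0.14 (SE 0.32, adjusted p = 0.852), with a 95% interval from -0.91 to 0.63.

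Biglycan (Bgn, ENSMUSG00000031375, chromosome X, 73483602 to 73495933, plus strand) carries a pair of chondroitin or dermatan sulfate chains. It was at 3437, 3418 and 3491 CPM in IL16-/-ApoE-/- 1, 2 and 3, against 1633, 4650 and 4430 CPM in ApoE-/- 1, 2 and 3. ApoE-/- 1 lay below all IL16-/-ApoE-/- libraries, and ApoE-/- 2 and 3 lay above them. Biglycan had a log2 fold change of -0.05 (SE 0.45, 95% interval -1.13 to 1.03, adjusted p = 0.967) with all libraries and -0.40 (SE 0.15, adjusted p = 0.106) without ApoE-/- 1. Bgn is X-linked, and ApoE-/- 1 is the library with the high Xist. Prelp on chromosome 1 and Vcan on chromosome 13 were also lowest in ApoE-/- 1, and the part of X linkage in the Bgn value was not tested.

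Asporin (Aspn, ENSMUSG00000021388, chromosome 13, 49544443 to 49567565, plus strand) has an aspartate-rich stretch in place of the chain attachment sites of its relatives and is therefore a proteoglycan by family and not by chain. It was at 61.6, 54.5 and 49.9 CPM in IL16-/-ApoE-/- 1, 2 and 3, against 80.3, 142 and 140.2 CPM in ApoE-/- 1, 2 and 3. All IL16-/-ApoE-/- libraries lay below all ApoE-/- libraries, as they did for 11.5% of all tested genes. Asporin had a log2 fold change of -1.13 (SE 0.25, 95% interval -1.74 to -0.52, unadjusted p = 0.00356, adjusted p = 0.112), the smallest p among the members, and did not pass. It was -1.35 (SE 0.12, adjusted p = 0.00214) without ApoE-/- 1, which passed, and -1.12 (SE 0.29, adjusted p = 0.0034) in DESeq2, which passed too. Its adjusted p lay between 0.00214 and 0.408 across 15 alternatives, and its log2 fold change between -1.35 and -0.99.

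Class II holds lumican, fibromodulin and Prelp, which carry keratan sulfate in some tissues. Lumican (Lum, ENSMUSG00000036446, chromosome 10, 97565128 to 97572703, plus strand) is best known for keeping corneal collagen fibrils evenly spaced. It was at 975, 1130 and 1130 CPM in IL16-/-ApoE-/- 1, 2 and 3, against 584, 850.3 and 189 CPM in ApoE-/- 1, 2 and 3. It was the 1 member with all IL16-/-ApoE-/- libraries above all ApoE-/- libraries, as 14.9% of all tested genes were. With a log2 fold change of 1.00 (SE 0.53, 95% interval -0.27 to 2.26, adjusted p = 0.401), it did not pass here or under any of 15 alternatives (adjusted p from 0.160 to 0.697). ApoE-/- 3, the library with the lowest Lum, also had the lowest summed macrophage markers (362.5 CPM) and the lowest dermatopontin (Dpt, 190.1 CPM). Without ApoE-/- 3 the log2 fold change of Lum was 0.58 (SE 0.28, adjusted p = 0.398).

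Fibromodulin (Fmod, ENSMUSG00000041559, chromosome 1, 134037254 to 134048277, plus strand) shares a collagen-binding site with lumican. It was at 108, 106 and 115 CPM in IL16-/-ApoE-/- 1, 2 and 3, against 88.2, 155 and 88.1 CPM in ApoE-/- 1, 2 and 3 (log2 fold change -0.01, SE 0.26, 95% interval -0.63 to 0.61, adjusted p = 0.988). Prelp (ENSMUSG00000041577, chromosome 1, 133910304 to 133921414, minus strand) has a basic amino-terminal end that binds heparan sulfate. It was at 504, 514 and 519 CPM in IL16-/-ApoE-/- 1, 2 and 3, against 247, 852 and 541 CPM in ApoE-/- 1, 2 and 3 (log2 fold change -0.09, SE 0.44, 95% interval -1.15 to 0.97, adjusted p = 0.932). For both genes the IL16-/-ApoE-/- libraries lay inside the ApoE-/- range.

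Osteoglycin (Ogn, ENSMUSG00000021390, chromosome 13, 49608046 to 49624501, plus strand), also called mimecan, belongs to class III and is made by smooth muscle cells and fibroblasts. It was at 395, 340.5 and 368 CPM in IL16-/-ApoE-/- 1, 2 and 3, against 424, 1195 and 1807 CPM in ApoE-/- 1, 2 and 3. All IL16-/-ApoE-/- libraries lay below all ApoE-/- libraries, but ApoE-/- 1 was close to them. Its log2 fold change of -1.63 (SE 0.52, 95% interval -2.88 to -0.39, unadjusted p = 0.0177, adjusted p = 0.220) was the largest among the members and did not pass. Without ApoE-/- 1 it was -2.03 (SE 0.20, adjusted p = 0.00275), which passed, and without ApoE-/- 3 it was -1.14 (SE 0.44, adjusted p = 0.317).

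Promoter sequences are shown for Ogn and Aspn, whose libraries were lower in IL16-/-ApoE-/- without overlap, and for Bgn, the most abundant member, whose groups overlapped. Each runs from 250 bases before to 50 bases after the RefSeq start of the gene in GRCm38.p6, at chr13:49607765-49608064 (plus strand) for Ogn, chr13:49544193-49544492 (plus strand) for Aspn and chrX:73483351-73483650 (plus strand) for Bgn. Capitals mark matches on either strand to TATAAA or to GGAATG, the motif of TEAD factors.
Ogn promoter: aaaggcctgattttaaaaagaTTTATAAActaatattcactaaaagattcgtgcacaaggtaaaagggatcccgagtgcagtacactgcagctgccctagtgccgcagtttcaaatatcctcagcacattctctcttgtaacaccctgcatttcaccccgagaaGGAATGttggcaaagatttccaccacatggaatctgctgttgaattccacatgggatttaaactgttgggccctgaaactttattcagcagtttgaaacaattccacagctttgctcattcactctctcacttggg
Aspn promoter: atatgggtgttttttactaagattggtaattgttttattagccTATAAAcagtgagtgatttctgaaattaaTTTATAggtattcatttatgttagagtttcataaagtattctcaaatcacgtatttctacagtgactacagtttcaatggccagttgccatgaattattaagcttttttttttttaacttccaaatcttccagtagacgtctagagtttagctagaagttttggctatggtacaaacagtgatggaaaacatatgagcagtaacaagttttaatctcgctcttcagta
Bgn promoter: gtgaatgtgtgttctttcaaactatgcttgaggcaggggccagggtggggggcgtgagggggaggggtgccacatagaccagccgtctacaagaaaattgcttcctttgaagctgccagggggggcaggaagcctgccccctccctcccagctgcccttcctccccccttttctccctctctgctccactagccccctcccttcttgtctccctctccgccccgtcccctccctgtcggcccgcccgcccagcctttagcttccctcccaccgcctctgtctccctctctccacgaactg
Ogn and Aspn each held 2 matches to TATAAA, which overlapped each other in Ogn, and Ogn held 1 to GGAATG. Bgn held neither. Of 32851 promoters of the same length in the table, 13.6% held TATAAA and 14.7% held GGAATG. None of the 3 held TGANTCA, the AP-1 motif, or a CArG box, the motif of serum response factor, which stood in 7.81% and 1.63% of all promoters. The promoters of the 8 members found in the table ran from 31.0% G and C in Aspn and 42.3% in Ogn to 63.7% in Bgn and 74.0% in Acan, against a median of 52.7% over the table. These are matches of letters and show no binding.

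Aspn and Ogn lie in a run of 4 leucine-rich genes on chromosome 13, in the order Ecm2, Aspn, Omd, Ogn, which spans 120 kb. The other two are not members. Osteomodulin (Omd), a keratan sulfate proteoglycan known from bone, was at 6.57, 9.26 and 9.49 CPM in IL16-/-ApoE-/- 1, 2 and 3, against 14.98, 37.6 and 36.9 CPM in ApoE-/- 1, 2 and 3. All IL16-/-ApoE-/- libraries lay below all ApoE-/- libraries, and the log2 fold change was -1.82 (SE 0.39, adjusted p = 0.1002), which did not pass in edgeR. Omd passed as lower with all libraries in DESeq2 (-1.81, adjusted p = 0.000572) and in weighted limma-voom (-2.04, adjusted p = 0.00572). Ecm2, an extracellular protein with leucine-rich repeats, was at 117, 102 and 116 CPM in IL16-/-ApoE-/-, against 74.7, 298 and 416 CPM in ApoE-/- (log2 fold change -1.24, SE 0.57, adjusted p = 0.351). Without ApoE-/- 1 all 4 genes of the run passed as lower in IL16-/-ApoE-/- (Omd -2.14, adjusted p = 0.0022, and Ecm2 -1.68, adjusted p = 0.00275). In that fit 12.8% of all tested genes passed as lower.

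**Figure D3:**
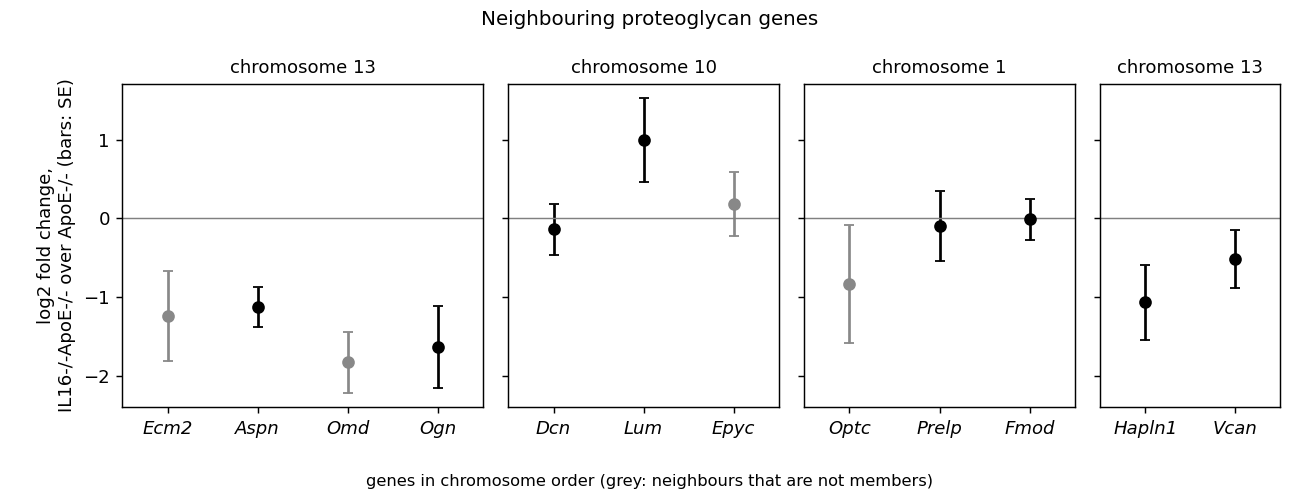
Log2 fold change of IL16-/-ApoE-/- over ApoE-/- with its SE (y axis, all 6 libraries) for proteoglycan genes that neighbour each other, in chromosome order, with members in black and other genes in grey. The 4 genes of the first chromosome 13 group lie between -1.82 and -1.13, Kera is not drawn because it had too few reads, and Dcn and Lum on chromosome 10 lie at -0.14 and 1.00.

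Neighbouring members elsewhere had other values. Dcn and Lum stand beside Kera and Epyc on chromosome 10, and their log2 fold changes were -0.14 and 1.00. The corneal Kera had too few reads to test, and Epyc, epiphycan of growth cartilage, had a log2 fold change of 0.19 (SE 0.41, adjusted p = 0.838). Lum relative to Dcn (ratio of CPM per kb) was 0.425, 0.467 and 0.497 in IL16-/-ApoE-/- 1, 2 and 3, against 0.236, 0.251 and 0.104 in ApoE-/- 1, 2 and 3. The ratios did not overlap, and such a ratio does not depend on the scaling of the libraries. It is 1 of 19 ratios computed after the values were seen, and 3 samples against 3 cannot go below a two-sided p of 0.10 in an exact permutation test, so none is given. On chromosome 1, Prelp and Fmod stand beside Optc, opticin, which had a log2 fold change of -0.83 (SE 0.75, adjusted p = 0.604).

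The genes of the chromosome 13 run lie within Cenpp on the opposite strand, a centromere protein gene. Cenpp had 21 to 51 counts in the IL16-/-ApoE-/- libraries and 37 to 101 counts in the ApoE-/- libraries. Aspn alone had 2145 to 2674 counts in IL16-/-ApoE-/- and 6730 to 11281 counts in ApoE-/-. The libraries kept strand, but the sources used here do not give the strand setting of the counting.

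Versican (Vcan, ENSMUSG00000021614, chromosome 13, 89655312 to 89742509, minus strand) is the main large chondroitin sulfate proteoglycan of the arterial intima. It was at 94.4, 86.5 and 97.0 CPM in IL16-/-ApoE-/- 1, 2 and 3, against 63.6, 167 and 166 CPM in ApoE-/- 1, 2 and 3. ApoE-/- 1 lay below all IL16-/-ApoE-/- libraries and the other two above them. Versican had a log2 fold change of -0.51 (SE 0.37, 95% interval -1.40 to 0.37, adjusted p = 0.519) with all libraries in and did not pass. Without ApoE-/- 1 it was -0.85 (SE 0.10, adjusted p = 0.00403), which passed. The antisense gene Gm4117, which overlaps Vcan, had 177, 151 and 172 counts in IL16-/-ApoE-/- 1, 2 and 3 and 144, 640 and 885 counts in ApoE-/- 1, 2 and 3, against 4098 to 4167 counts of Vcan in IL16-/-ApoE-/- and 5330 to 13343 in ApoE-/-. The 2 overlap, and without a known strand setting their reads cannot be told apart there.

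Hyaluronan and proteoglycan link protein 1 (Hapln1, ENSMUSG00000021613, chromosome 13, 89539796 to 89611652, plus strand) fixes versican or aggrecan to hyaluronan, and its gene is the neighbour of Vcan. It had the lowest mean of the members in both groups, although Acan was lower in ApoE-/- 3. Hapln1 was at 3.83, 2.37 and 3.14 CPM in IL16-/-ApoE-/- 1, 2 and 3, against 3.04, 6.47 and 9.99 CPM in ApoE-/- 1, 2 and 3. The IL16-/-ApoE-/- values rest on 166, 113 and 135 counts, and the CPM of ApoE-/- 1 lay among theirs. Hapln1 had a log2 fold change of -1.06 (SE 0.47, 95% interval -2.20 to 0.07, adjusted p = 0.338). It passed without ApoE-/- 1 only (-1.40, SE 0.32, adjusted p = 0.0268), of 15 alternatives run. The pseudogene Gm8546, which overlaps Hapln1 on the other strand, had 14 to 33 counts in IL16-/-ApoE-/- and 19 to 58 counts in ApoE-/-.

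Aggrecan (Acan, ENSMUSG00000030607, chromosome 7, 79053483 to 79115099, plus strand) is the main proteoglycan of cartilage and is also found in the aortic media. It was at 17.4, 14.8 and 18.7 CPM in IL16-/-ApoE-/- 1, 2 and 3, against 15.3, 55.0 and 9.61 CPM in ApoE-/- 1, 2 and 3. ApoE-/- 2 stood alone, and the other 5 libraries lay between 9.61 and 18.7 CPM. Aggrecan had a log2 fold change of -0.65 (SE 0.62, 95% interval -2.15 to 0.84, adjusted p = 0.625) with all libraries and 0.45 (SE 0.27, adjusted p = 0.546) without ApoE-/- 2. Of 8 chondrocyte markers, 7 were tested and 0 passed. Their summed level was 95.2 to 120 CPM in IL16-/-ApoE-/- and 56.1, 114 and 78.0 CPM in ApoE-/- 1, 2 and 3, and the cartilage matrix gene Matn1 was at 0 in every library. The cartilage collagen Col2a1 was at 22.5, 35.7 and 27.3 CPM in IL16-/-ApoE-/- 1, 2 and 3, against 1.53, 43.0 and 16.1 CPM in ApoE-/- 1, 2 and 3. ApoE-/- 2 was the highest library for both Acan and Col2a1. The part of cartilage-type cells in the Acan value was not tested.

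**Figure D4:**
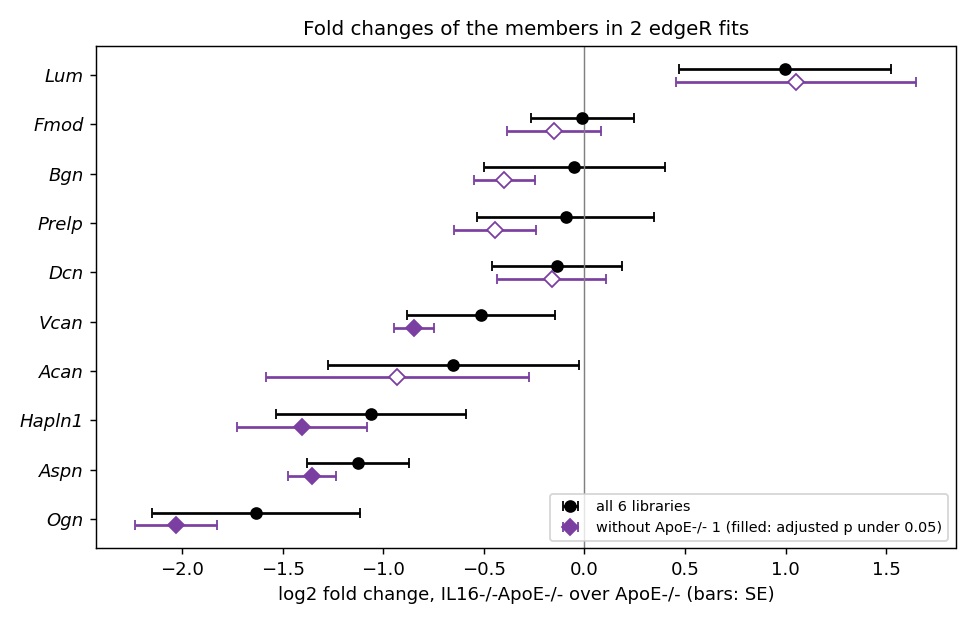
Log2 fold change of IL16-/-ApoE-/- over ApoE-/- with its SE (x axis) for each member (rows), with all 6 libraries (black) and without ApoE-/- 1 (purple, filled where the adjusted p is under 0.05). Aspn, Ogn, Vcan and Hapln1 are filled, at -1.35, -2.03, -0.85 and -1.40.

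Markers of the cell types in and around the aorta also differed among the libraries. In bulk tissue, fewer cells of a type and less RNA per cell cannot be told apart. The 6 smooth muscle markers, Myh11 and Acta2 among them, summed to 9481, 8362 and 9196 CPM in IL16-/-ApoE-/- 1, 2 and 3, against 4182, 18520 and 26720 CPM in ApoE-/- 1, 2 and 3. None of the 6 passed with all libraries, and all 6 passed as lower in IL16-/-ApoE-/- without ApoE-/- 1. Without that library 12.8% of all tested genes passed as lower. Ogn and Hapln1 ordered the 3 ApoE-/- libraries as the smooth muscle sum did, and the other members did not. The 8 fibroblast markers, led by Gsn, Pi16 and Dpt, summed to 3068, 3203 and 3044 CPM in IL16-/-ApoE-/-. Their sums in ApoE-/- 1, 2 and 3 were 3801, 4531 and 2919 CPM. Dcn, Lum, Fmod and Acan had the same order of libraries within ApoE-/-, and the other members did not. None of the 8 fibroblast markers passed with all libraries, and 2, Lama2 and Pdgfrb, passed as lower without ApoE-/- 1.

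Relative to Myh11 (ratio of CPM per kb), Ogn was at 0.427, 0.421 and 0.395 in IL16-/-ApoE-/- 1, 2 and 3, against 0.920, 0.473 and 0.535 in ApoE-/- 1, 2 and 3. Bgn relative to Myh11 was at 4.77, 5.44 and 4.81 in IL16-/-ApoE-/-, against 4.56, 2.36 and 1.68 in ApoE-/-. Prelp relative to Myh11 was at 0.386, 0.452 and 0.395 in IL16-/-ApoE-/-, against 0.380, 0.239 and 0.114 in ApoE-/-. The Ogn ratios lay below and the Bgn and Prelp ratios above those of ApoE-/-, without overlap. Ratios to the other smooth muscle markers, such as Acta2 and Tagln, were not computed, so this covers Myh11 only. No share over all genes was computed for such ratios. The margins to ApoE-/- 1 were narrow for Prelp (0.386 against 0.380) and Bgn (4.77 against 4.56). Myh11 itself ran from 1158 to 8497 CPM in ApoE-/-. These ratios belong to the 19 computed after the values were seen, and several others, such as Aspn to Dcn and Lum to Fmod, did not overlap either. For Vcan, Aspn and Hapln1 the ratio to Myh11 overlapped between the groups. The part of smooth muscle content in the members' values was not tested.

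Other cell types and tissues were read from their markers in the same way. The 5 adipocyte markers summed to 4331 to 4671 CPM in IL16-/-ApoE-/-, against 4477, 591 and 568 CPM in ApoE-/- 1, 2 and 3, and the 5 macrophage markers to 4343 to 6177 CPM, against 4594, 2249 and 362.5 CPM. The 5 endothelial markers summed to 1103 to 1149 CPM in IL16-/-ApoE-/- and 549 to 964 CPM in ApoE-/-. The 6 kidney tubule markers summed to 460.0 to 511 CPM in IL16-/-ApoE-/- and 0.174 to 0.967 CPM in ApoE-/-, and all 6 passed as higher. Kap, Umod, Slc12a1 and Miox had no count in ApoE-/-. Heart and skeletal muscle, Schwann cell and red cell markers summed to 132 to 414, 106 to 140.4 and 3093 to 8345 CPM in IL16-/-ApoE-/-, against 23.4 to 63.1, 22.6 to 40.9 and 728 to 3189 CPM in ApoE-/-. Tnnt2 was the 1 of these 13 genes to pass, as higher, and Lep the 1 adipocyte gene. When ApoE-/- 1 was left out, all 5 adipocyte, all 5 endothelial and all 6 heart and skeletal muscle markers passed as higher, as did 1 of 4 Schwann cell markers, and no macrophage or red cell marker passed. In that fit 13.1% of all tested genes passed as higher. The part of these cell types and tissues in the members' values was not tested.

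**Figure D5:**
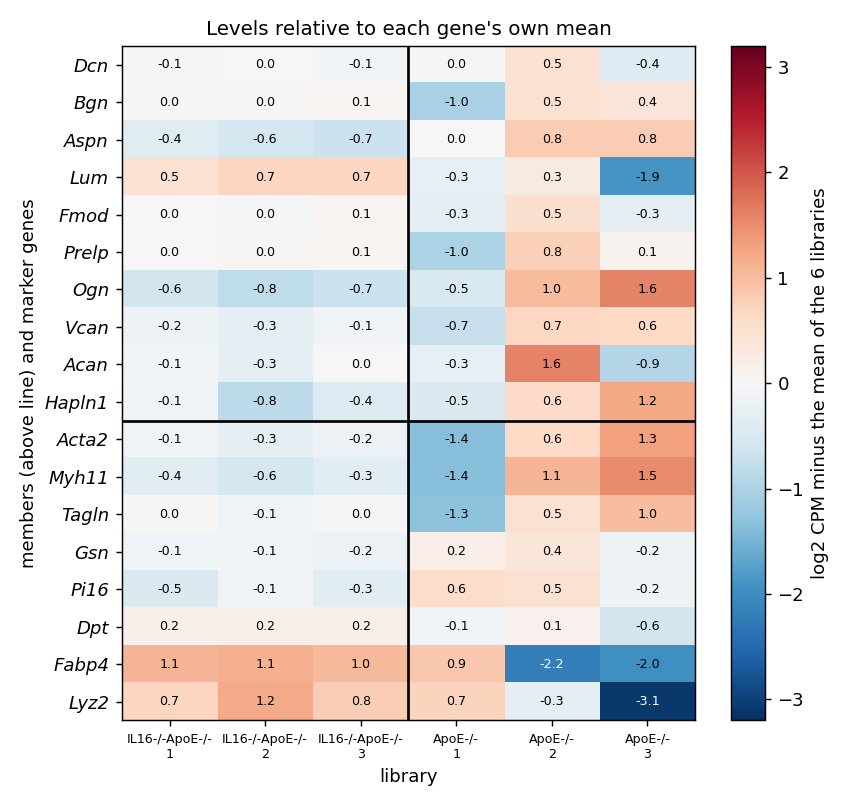
Log2 CPM of each gene minus its mean over the 6 libraries (colour and number) for the 10 members (above the line) and for markers of smooth muscle (Acta2, Myh11, Tagln), fibroblasts (Gsn, Pi16, Dpt), fat (Fabp4) and macrophages (Lyz2), with IL16-/-ApoE-/- left and ApoE-/- right. Bgn, Prelp and the 3 smooth muscle genes are lowest in ApoE-/- 1, and Lum, Dpt and Lyz2 are lowest in ApoE-/- 3.

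The members showed several patterns across the 6 libraries. The measure of likeness was the mean absolute difference of log2 CPM after each gene was centred on its own mean. The closest pairs of members were Bgn with Prelp (0.11), Dcn with Fmod (0.12), Vcan with Bgn (0.24), Fmod with Prelp (0.25) and Ogn with Hapln1 (0.25), and the farthest was Ogn with Lum (1.40). Near genes were sought among other tested genes with a mean of at least 1 CPM, leaving out those without a symbol or with a predicted or clone name. The closest to Vcan were Nedd9 (0.03), a scaffold protein of focal adhesions, Fbxo32 (0.03), a muscle ubiquitin ligase, and Zfp704 (0.04). The closest to Ogn were the kinase gene Rock1 (0.06), Fgf14 (0.09) and the semaphorin Sema3d (0.11), and the closest to Aspn were Zfp72 (0.08), the vasopressin receptor Avpr1a (0.08) and Tshz1 (0.08). Lum had Cd163l1 (0.11), a scavenger receptor, nearest among the genes searched, followed by Gpr137b (0.12) and Ttc9 (0.14). Fmod had Gpc1, a glypican, nearest (0.06), followed by Cemip2 (0.07) and Ern1 (0.07). Prelp had Fez1 (0.07), Cbs (0.10) and Timp3 (0.11), a matrix-bound protease inhibitor. The nearest to Dcn were Zfp407 (0.04), Eif2ak2 (0.04) and Nup205 (0.05), and to Bgn Tbc1d30 (0.07), Ahi1 (0.07) and Cdh13 (0.08). Hapln1 had Mum1l1 (0.11), Gramd1c (0.11) and Sema6c (0.12), and Acan, farthest from its nearest genes, had Slc16a5 (0.22), Ptgfr (0.23) and Atp7a (0.24).

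Genes that act with the members were read from the same comparison, and no gene of these 9 lists passed in edgeR with all libraries in. Of the 2 genes first by p in each list, DESeq2 with all libraries passed Omd (adjusted p = 0.000572), Adamts5 (0.00138), Chpf (0.0439) and Csgalnact2 (0.0457) as lower and Chad (0.000249) as higher. Limma-voom with sample weights passed the same 5 in the same directions, and Hyal1 (adjusted p = 0.0309), Gpc4 (0.0431) and Adamts15 (0.0289) as lower too. These genes were picked for a small edgeR p on the same counts, so their passing is not separate evidence. The other genes of the lists were not read in these 2 tests. Over all tested genes DESeq2 passed 462 as lower and 1235 as higher of 19757. Limma-voom passed 1488 and 1863 of 19833. Of 10 other small leucine-rich genes 9 were tested, with a median log2 fold change of -0.12. Omd was among them, and so was chondroadherin (Chad), a cell-binding cartilage protein, at 4.10, 6.47 and 5.70 CPM in IL16-/-ApoE-/- against 2.26, 1.99 and 1.43 CPM in ApoE-/- (log2 fold change 1.52, SE 0.34, adjusted p = 0.108). All IL16-/-ApoE-/- libraries lay above ApoE-/- for Chad, and it passed as higher without ApoE-/- 1 (adjusted p = 0.0196). Of 5 other hyalectans and link proteins 4 were tested, with a median of -0.09, and none passed without ApoE-/- 1 either. The smallest p in it belonged to Hapln3 (log2 fold change 0.86, SE 0.58, adjusted p = 0.490) and to brevican, Bcan (-1.50, SE 1.25, adjusted p = 0.579), both under 2 CPM.

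Enzymes that build chondroitin and dermatan sulfate chains, which decorin, biglycan, versican and aggrecan carry, had negative fold changes in 13 of 15 tested genes. Over all tested genes 10621 of 19833 were negative. The median was -0.27 for the enzymes against -0.05 over all tested genes. Csgalnact2, which starts the chondroitin chain, was at 54.5, 55.5 and 53.3 CPM in IL16-/-ApoE-/- 1, 2 and 3, against 66.0, 105 and 140 CPM in ApoE-/- 1, 2 and 3 (log2 fold change -0.93, SE 0.27, adjusted p = 0.191). Chpf, a chondroitin polymerizing factor, was at 69.8, 70.03 and 67.3 CPM in IL16-/-ApoE-/-, against 83.2, 121 and 126 CPM in ApoE-/- (-0.68, SE 0.20, adjusted p = 0.180). Neither gene's groups overlapped. Without ApoE-/- 1, 8 of the 15 passed as lower, Csgalnact2 and Chpf among them, and 1, the sulfotransferase Chst15, as higher, where 12.8% of all tested genes passed as lower.

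The enzymes of the shared linker, 6 of 6 tested, had log2 fold changes from -0.38 to 0.24, with B3galt6 (-0.38, SE 0.28, adjusted p = 0.526) and Xylt2 (-0.31, SE 0.23, adjusted p = 0.536) first by p, and none passed without ApoE-/- 1. Of 6 keratan sulfate genes 5 were tested, with a median of 0.31. Their first by p were B3gnt7 (1.22, SE 0.53, adjusted p = 0.328) and B4galt1 (0.31, SE 0.19, adjusted p = 0.452), and without ApoE-/- 1 the sulfotransferase Chst1 passed as higher. In the hyaluronan list 12 of 12 were tested, with a median of -0.08. The hyaluronidase Hyal1 (-0.53, SE 0.30, adjusted p = 0.426) and the hyaluronan-degrading Cemip (0.97, SE 0.57, adjusted p = 0.443) came first. Without ApoE-/- 1, Hyal1 passed as lower and the hyaluronan synthase Has1 as higher.

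Of 6 ADAMTS proteases that cleave versican or aggrecan, all tested, Adamts5, the main aggrecanase of mouse cartilage, was at 66.8, 67.3 and 68.1 CPM in IL16-/-ApoE-/- 1, 2 and 3, against 99.7, 173 and 155 CPM in ApoE-/- 1, 2 and 3. The groups did not overlap, and its log2 fold change of -1.08 (SE 0.23, adjusted p = 0.1002) did not pass in edgeR, while it did in DESeq2 (adjusted p = 0.00138) and in weighted limma-voom (adjusted p = 0.00376). Adamts15 came next (-0.69, SE 0.32, adjusted p = 0.359), and both passed as lower without ApoE-/- 1. The median of the list was -0.14. Of 15 cell-surface and secreted proteoglycans none passed in edgeR, with a median of -0.36. The glypican Gpc4 (-0.58, SE 0.25, adjusted p = 0.332) and the endothelial Esm1 (-0.62, SE 0.27, adjusted p = 0.334) were first by p. Without ApoE-/- 1, 5 of the 15 passed as lower, where 12.8% of all tested genes did.

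The fibrillar collagens that the small proteoglycans bind had a median log2 fold change of -0.07 over 5 genes, with Col5a1 (-0.43, SE 0.29, adjusted p = 0.491) and Col1a2 (-0.33, SE 0.29, adjusted p = 0.598) first by p. Without ApoE-/- 1, Col5a1 passed as lower. Their summed level was 6115 to 7388 CPM in IL16-/-ApoE-/- and 6389 to 8096 CPM in ApoE-/-, and the groups overlapped.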

How the data were processed

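Gene expression was measured by RNA sequencing of polyadenylated RNA from 6 mouse aorta samples, with groups and numbers taken from the titles. TRIzol extraction and strand-marking libraries with UDG digestion are recorded per the labels' protocols. The authors deposited 1 table of raw counts per gene, judged from its whole numbers and unequal column totals. The tools were HISAT2, StringTie and cutadapt, per the submitters' processing notes, which give no versions. Build, annotation, counting program and strand setting: not given in the sources used here. Of 55401 gene IDs, 55141 matched a symbol in GENCODE M21 (GRCm38), which gave positions and transcript lengths. Promoters come from RefSeq's GRCm38.p6 table.

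Genes were kept by filterByExpr (minimum count 10, minimum total 15) and compared with edgeR's quasi-likelihood test (TMM, robust dispersion and fit, no covariate), with Benjamini-Hochberg adjustment over all 19833 genes tested. The SE is the size of the log2 fold change divided by the root of F. The fits were also run on simulated counts with the same spread in both groups, unlike the unequal spread of these libraries, and that outcome is not given here. The members and lists were chosen with earlier results of these data known. From each further list, where none passed, the 2 genes with the smallest p are named, and for each member the 3 nearest genes by likeness. Other genes were named after their values were seen. Alternatives were RLE factors, library totals, 2 other filters, DESeq2, limma-voom with sample weights, thinning to equal totals, the block, each library left out and, added after seeing the data, removal of a transcript length trend. Software was R 4.3.3, edgeR 4.0.16, limma 3.58.1, DESeq2 1.42.0, Python 3.11.15 and matplotlib 3.10.9.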

Additional observations from a re-analysis of the deposited data

How the results depend on the processing

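No member passed with all libraries in edgeR, which gave 226 genes higher and 12 lower over the whole table. None passed under RLE factors, library totals, either other filter, thinning or removal of the length trend either. These settings gave 141 to 272 genes higher and 12 to 21 lower, with 141 and 21 for the length trend. DESeq2 gave 1235 and 462 genes and 2 members lower, and limma-voom with sample weights 1863 and 1488 and 3 members lower. Same-numbered libraries did not deviate together from their group means over all tested genes (correlations of -0.04, -0.027 and -0.01). Libraries with different numbers had correlations from -0.075 to 0.09. These values show no pairing by number, but they cannot exclude a shared batch. With the number as a replicate block 0 genes passed in either direction (1643 higher and 684 lower at an unadjusted p under 0.05), and the log2 fold changes of Bgn, Fmod and Prelp were 0.0862, 0.0437 and 0.0765.

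Leaving out each library in turn gave 0 to 2651 genes higher, 0 to 2580 lower, 0 members higher and 0 to 4 members lower. The 2651, 2580 and 4 came without ApoE-/- 1. Without any 1 IL16-/-ApoE-/- library both counts of genes were 0 in edgeR, with 1254 to 1319 higher and 630 to 723 lower at an unadjusted p under 0.05. Without ApoE-/- 2 the counts were 101 and 7, and without ApoE-/- 3 they were 163 and 19.

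The fold changes of Fmod, Prelp, Bgn, Dcn and Acan changed sign under some alternatives. Fmod was at 0.0137 with at least 1 CPM in 3 libraries, and Fmod and Prelp were at 0.0813 and 0.0268 with the length trend removed. With single libraries left out, Dcn ran from -0.34 to 0.12, Bgn from -0.40 to 0.19, Fmod from -0.15 to 0.32, Prelp from -0.44 to 0.39 and Acan from -1.06 to 0.45. The causes were not tested. Aspn, Lum, Ogn, Vcan and Hapln1 kept their direction under all 15 alternatives. Depth limits Hapln1 most, with 113 to 166 counts in the IL16-/-ApoE-/- libraries.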
